A study of Homo sapiens with 12 samples.

Results

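The 6 arrays described here hybridised RNA from H1 cells, an established line of human embryonic stem cells, that had received an shRNA against luciferase. Human cells make no luciferase, so this shRNA served as the negative control in a study of the transcription factor OCT4, which is encoded by POU5F1. Control day 2 and control day 3 had 3 arrays each, and these 6 of the 12 arrays of the series were selected by the shRNA and the harvest time in their labels. The other 6 arrays, also 3 for each day, came from H1 cells that had received an shRNA against OCT4 and are called knockdown arrays. All cells were seeded 1 day before transfection and received 2 µg of shRNA with 6 µL of Fugene, a lipid transfection reagent, so every array followed a transfection. Cells were harvested 2 or 3 days after it. The labels describe no untransfected cells and no earlier harvest among these groups. Time in culture and time since transfection therefore cannot be told apart. No label states whether replicates were separate cultures, so the spread behind the p-values may be technical.

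Human embryonic stem cells renew themselves through a network of transcription factors that includes OCT4, SOX2 and NANOG, and they grow as dense epithelial colonies. DNA or RNA brought into a cell can be sensed by the interferon system, in which sensors such as IFIH1 and the adaptor TICAM1 lead to interferon-stimulated genes that hinder viral replication. Embryonic stem cells are known for a weak interferon response. Genes of contractile actin filaments are commonly controlled by serum response factor and its actin-sensing cofactors, which bind a promoter element called the CArG box. Interferon-stimulated genes commonly carry another element, the ISRE.

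The label of embryonic stem cells was checked against 10 markers. Among them 9, namely POU5F1, SOX2, NANOG, LIN28A, DNMT3B, PODXL, DPPA4, SALL4 and L1TD1, were detected on all 6 control arrays, and TDGF1 has no probe named for it in the annotation used. PAX6 and CDX2 were not detected on any of the 12 arrays, and GATA6 was not detected on any of the 6 control arrays. Of the markers of other cells that had a probe, 27 of 40 trophoblast genes, 21 of 37 mesoderm and primitive streak genes, 16 of 39 neuroectoderm genes, 11 of 29 endoderm genes and 9 of 30 stromal genes were undetected on every control array. Of all 18852 genes with a probe, 8258 were undetected there, a larger share than in the neuroectoderm, endoderm and stromal lists. Detected on all 6 control arrays were 8 trophoblast, 10 mesoderm, 16 neuroectoderm, 10 endoderm and 17 stromal genes, and 9055 of all genes. The summed intensity of the measured stromal genes was 62730 to 73971 at day 2 and 48866 to 61442 at day 3, and its part in the results was not tested. Without TAGLN, the brightest member, which also counts as a muscle gene, the sums overlapped (33892 to 46445 and 29276 to 43657). The list's median change was -0.10, and 0.02 over all members with a probe. In RNA from whole cultures, fewer cells of a type and less RNA per cell cannot be told apart.

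Across the 6 arrays, 13475 to 14641 of 48803 probes were detected (detection p under 0.01). Arrays of the same day correlated at 0.990 to 0.994 across probes and arrays of different days at 0.988 to 0.993. The first principal component of the 6 arrays held 43.5% of the variance and set both replicate 3 arrays (26.3 and 14.3) apart from the other 4 arrays (-20.3 to -1.28). The second held 26.1% and was higher on each day 2 array (4.8 to 16.1) than on any day 3 array (-20.7 to -2.59). Deviations from the day means correlated between same-numbered arrays at 0.241, 0.214 and 0.666 for replicates 1, 2 and 3. The best correlation with a differently numbered array of the other day was 0.289, 0.317 and -0.418, so replicates 1 and 2 are not told apart by this and only replicate 3 is. Since every same-numbered pair lay above 0.1, the fit that takes replicate numbers as a block is given beside the one that does not. Values below are normalised log2 intensities, and changes are day 3 minus day 2 on that scale. "Rose" and "fell" stand for an adjusted p under 0.05 in limma over all genes tested (Benjamini-Hochberg), by default without the block. In POU5F1, the target of the other shRNA, the 6 control arrays lay between 12.69 and 13.29.

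Few genes passed the test between day 2 and day 3. Of 10506 genes, 26 were called (0.247%), of which 12 rose (0.114%) and 14 fell (0.133%). With the replicate block 450 were called (4.28%), 183 upward (1.74%) and 267 downward (2.54%). An unadjusted p under 0.05 was found for 1145 genes without the block and for 2097 with it. Leaving out the control day 2 array of replicate 1, 2 or 3 left 5, 10 and 7 calls, and leaving out the control day 3 array left 9, 8 and 10. Without the knockdown day 2 array of replicate 2, which enters the shared normalisation, detection filter and estimate of spread, there were 54. Without replicate 1, 2 or 3 of every group, 0, 0 and 2 genes were called by limma, with 666, 731 and 1069 at an unadjusted p under 0.05. The calls of OASL, TFF3 and FGF12 ended under each of 5 other settings (the 6 control arrays alone, the authors' log2 values, no background correction, no detection filter, and every probe tested). All 26 genes were also called with the block, moved the same way in all 3 same-numbered pairs and did not overlap between the days. A call favours such genes, so this agreement follows largely from the selection. Over all genes, the days did not overlap for 16%, all 3 pairs were higher at day 3 for 20.4% and all 3 were lower for 21.5%. Of the 26, 17 changed by at least 2-fold in the fit, and 9 were undetected on all 3 arrays of one day, so their folds below are lower bounds.

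**Figure D1:**
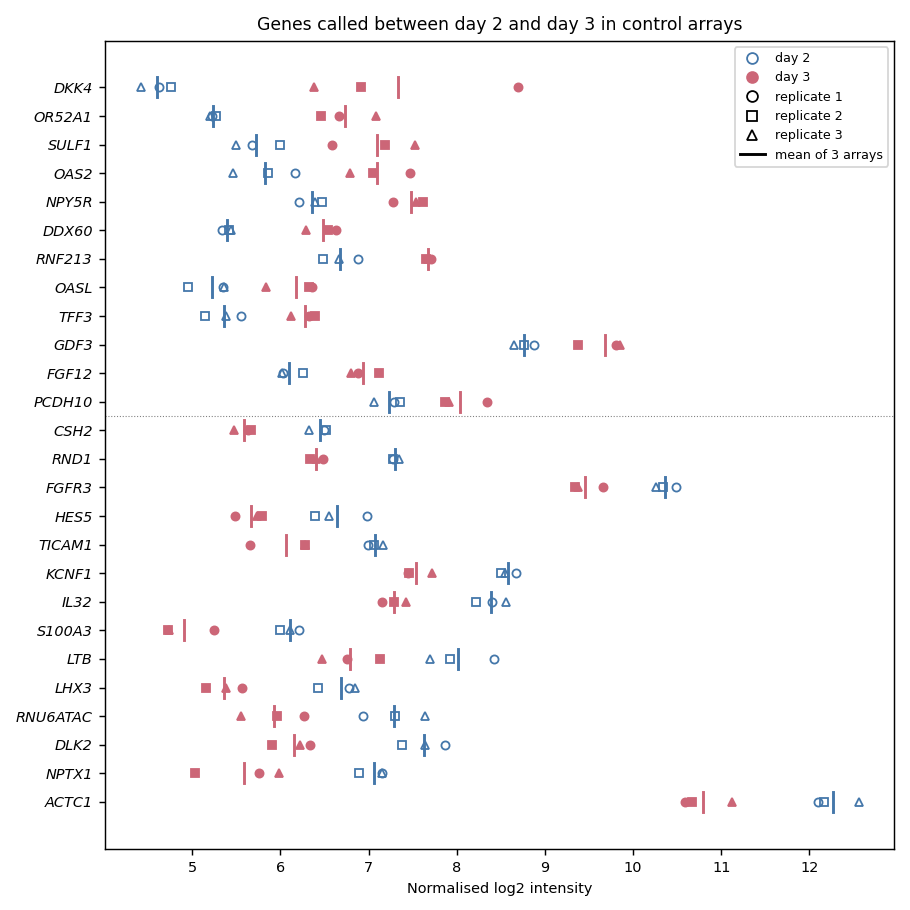
Normalised log2 intensity (horizontal axis) of the 26 genes called between the days, ordered by the size of the change. Open blue symbols are the 3 day 2 arrays, filled red symbols the 3 day 3 arrays, symbol shape gives the replicate number and vertical bars are the means of 3 arrays. The days do not overlap for any of the 26 genes, and DKK4 has the widest day 3 values, from 6.38 to 8.70.

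The genes that rose included several of the interferon system. Among 46 measured genes of interferon and double-stranded RNA response, 3 rose without the block and 15 with it, and 0 fell in either fit. Their median change was 0.23, against 0.00 over all genes tested, and 35 of the 46 had a change above 0. Of all 10506 genes, 5254 had a change above 0 and 1.74% rose with the block. Over all 63 list genes with a probe, with undetected values set at the detection level, the median was 0.12 (0.03 over all genes). The median was 0.23, 0.27 and 0.27 in the pairs of replicates 1, 2 and 3. The summed intensity of the 46 genes was 42782 to 45827 on the day 2 arrays and 54971 to 57518 on the day 3 arrays, without overlap. This list was chosen with earlier results of these data known, so its counts give no independent support.

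OAS2 encodes an enzyme that senses double-stranded RNA and activates RNase L. Its values were 6.17, 5.86 and 5.46 on the day 2 arrays and 7.47, 7.04 and 6.78 on the day 3 arrays. The lowest day 3 array lay above the highest day 2 array, and OAS2 rose by 1.27 (SE 0.21, limma adjusted p = 0.0219, block 0.00383). DDX60, a helicase that promotes RNA sensing, was undetected at day 2 (5.33, 5.42 and 5.44) and detected on all 3 day 3 arrays (6.62, 6.54 and 6.29). Its level was at least 1.5-fold higher at day 3 (fitted change 1.09, adjusted p = 0.00447, block 0.000528). OASL, a relative of the OAS enzymes that enhances RIG-I signalling, was likewise undetected at day 2 (5.35, 4.96 and 5.36) and detected at day 3 (6.35, 6.32 and 5.84). This gave a level at least 1.21-fold higher at day 3 (fitted change 0.95, adjusted p = 0.0413, block 0.00796). All 3 of these genes thus went from at or near the detection limit to low but detected levels. RNF213, a large ubiquitin ligase with an antimicrobial role, had 6.88, 6.48 and 6.66 at day 2 and 7.70, 7.65 and 7.68 at day 3 and rose by 1.00 (SE 0.18, adjusted p = 0.0399, block 0.00557).

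Members that passed only with the block included a sensor, a chemokine and antiviral effectors. IFIH1, the cytoplasmic sensor MDA5, was undetected at day 2 (5.38, 5.56 and 5.80) and had 6.87, 6.44 and 6.27 at day 3, at least 1.54-fold higher (adjusted p = 0.0514, block 0.00761). CCL5, a chemokine, was also undetected at day 2 (5.94, 5.73 and 5.59) and reached 7.70, 6.95 and 6.26 at day 3, at least 2.10-fold higher (adjusted p = 0.101, block 0.00528). In both genes the replicate 1 pair showed the widest difference. IFIT3, an antiviral protein with tetratricopeptide repeats, had 7.41, 7.56 and 7.36 at day 2 and 8.97, 8.09 and 8.33 at day 3 (change 1.02, adjusted p = 0.0774, block 0.0101). A dimmer IFIT3 probe gave a change of 1.31. IFIT2, its close relative, had 8.45, 8.63 and 8.27 at day 2 and 9.95, 9.25 and 9.12 at day 3 (change 0.99, adjusted p = 0.104, block 0.00875). The day 3 arrays exceeded every day 2 array in both genes. ISG15, a ubiquitin-like protein attached to other proteins after interferon, changed by 0.67 with arrays from 9.85 to 10.24 at day 2 and from 10.22 to 11.14 at day 3, which overlapped (adjusted p = 0.242, block 0.0156). ISG15, the IRF genes, the cytoplasmic actins, and the genes whose promoters are shown or listed were chosen after their values were seen. TICAM1, the adaptor TRIF of Toll-like receptor 3, fell by 1.00, and changes of IRF3, IRF7 and IRF9, transcription factors of the response, were -0.19, -0.07 and -0.01 without passing in either fit.

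The promoters of the interferon genes are shown because the genes moved together. RefSeq's 250 bases before the annotated start (GRCh38.p14) were searched on both strands for GAAANNGAAA, the core of the ISRE. Of the 15 list members called with the block, 10 had a promoter in the table, and 10 of these 10 held the core. It stood in 18 of the 35 promoters of the measured list (51.4%), in 14 of the 144 promoters of all genes that rose with the block (9.72%), in 2.24% of 8609 promoters of tested genes and in 3.07% of all 27305. The 18 and the 14 each include the 10 list members, so the share among rising genes comes mostly from this list. RNF213 had none in this window. OAS2, OASL, IFIT2, CCL5 and DHX58 were not in the table. A match is a description of the letters and not a measured site. In the sequences, read 5′ to 3′ on the gene's strand, capitals mark the core on either strand, and overlapping cores run together. DDX60 (chr4:168318753-168319002, minus strand) holds cores that begin 88 and 53 bases before the start. IFIH1 (chr2:162318685-162318934, minus strand) holds 3, at 159, 153 and 21 bases. In ISG15 (chr1:1013247-1013496, plus strand) the cores lie at 113 and 107 bases and overlap. For IFIT3 (chr10:89327747-89327996, plus strand) they lie at 156 and 122 bases.
DDX60: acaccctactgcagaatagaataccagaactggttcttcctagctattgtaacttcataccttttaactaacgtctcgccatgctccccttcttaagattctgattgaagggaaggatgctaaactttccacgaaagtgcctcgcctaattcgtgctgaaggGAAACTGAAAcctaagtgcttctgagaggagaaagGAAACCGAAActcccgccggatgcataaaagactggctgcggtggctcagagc
IFIH1: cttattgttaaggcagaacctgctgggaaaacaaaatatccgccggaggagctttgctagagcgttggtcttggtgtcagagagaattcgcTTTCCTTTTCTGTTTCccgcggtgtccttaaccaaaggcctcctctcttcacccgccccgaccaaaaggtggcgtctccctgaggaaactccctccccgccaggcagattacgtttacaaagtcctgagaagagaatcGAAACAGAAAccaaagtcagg
ISG15: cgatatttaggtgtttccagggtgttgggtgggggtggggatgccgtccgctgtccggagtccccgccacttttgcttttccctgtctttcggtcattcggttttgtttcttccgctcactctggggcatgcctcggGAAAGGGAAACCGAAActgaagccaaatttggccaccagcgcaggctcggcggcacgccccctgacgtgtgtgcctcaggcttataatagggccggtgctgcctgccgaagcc
IFIT3: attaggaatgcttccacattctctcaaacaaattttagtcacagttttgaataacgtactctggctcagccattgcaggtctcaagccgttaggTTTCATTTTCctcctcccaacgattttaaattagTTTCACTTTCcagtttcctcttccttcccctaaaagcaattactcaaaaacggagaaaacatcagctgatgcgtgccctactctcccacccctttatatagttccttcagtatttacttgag

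None of OAS2, DDX60 and OASL was called between the days in the knockdown arrays. OAS2, DDX60, OASL, IFIH1 and CCL5 were undetected on all 6 knockdown arrays. The fitted change between the days in knockdown arrays was -0.07 for OAS2, -0.15 for DDX60 and -0.20 for OASL, and each differed from the control change (interaction adjusted p = 0.027, 0.00242 and 0.0242). These probes had only a bound in the knockdown arrays, so the fitted differences depend on values below detection. Over the list, 4 of 46 members rose in knockdown arrays, where 3.91% of all genes rose, with a median change of 0.08. IFITM1, a membrane protein that hinders viral entry, was among these 4 (0.81, adjusted p = 0.00994) and changed by 0.70 in control arrays (adjusted p = 0.106, block 0.0178).

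**Figure D2:**
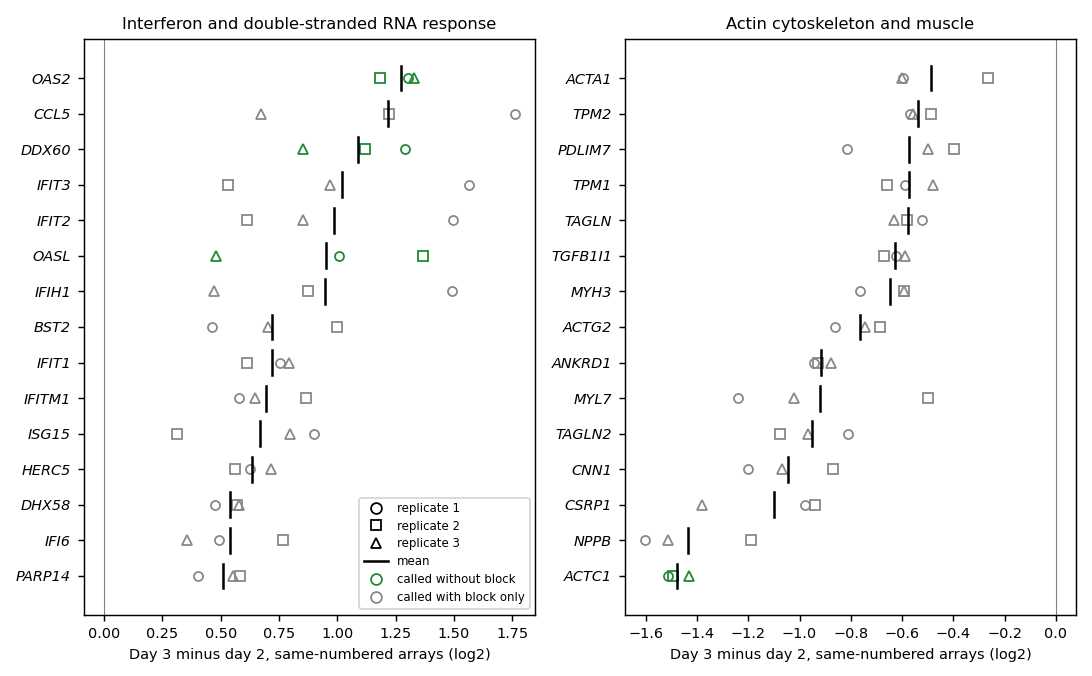
Day 3 minus day 2 for same-numbered control arrays (log2), for the 15 interferon and double-stranded RNA response genes (left) and the 15 actin cytoskeleton and muscle genes (right) called with the replicate block. Symbols give the replicate number, black bars the mean, and green marks genes also called without the block, which are OAS2, DDX60, OASL and ACTC1. All 3 pairs lie above 0 for every gene on the left and below 0 for every gene on the right. This follows from the selection, since the 3 pairs moved the same way in all 450 genes called with the block.

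The other genes that rose included secreted proteins and receptors. DKK4, a secreted inhibitor of WNT signalling, had the largest fitted rise. It was undetected at day 2 (4.62, 4.75 and 4.42) and had 8.70, 6.91 and 6.38 at day 3, at least 2.70-fold higher (fitted change 2.73, adjusted p = 0.0156, block 0.00142). The replicate 1 array was well above the other day 3 arrays. DKK4 was the 1 member called among 28 measured WNT response genes, whose median change was 0.01. SULF1, a sulfatase that trims heparan sulfate and so tunes growth factor signalling, was detected on 1 of 3 day 2 arrays (5.68, 5.99 and 5.49) and on all day 3 arrays (6.58, 7.19 and 7.53), and rose by 1.38 (SE 0.21, adjusted p = 0.0156, block 0.00142).

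GDF3, a ligand of the TGF-beta family found in pluripotent cells, had 8.88, 8.76 and 8.65 at day 2 and 9.81, 9.38 and 9.86 at day 3 and rose by 0.92 (SE 0.15, adjusted p = 0.0258, block 0.00525). OR52A1, an olfactory receptor gene, was undetected at day 2 (5.22, 5.27 and 5.21) and had 6.66, 6.46 and 7.09 at day 3, at least 1.79-fold higher (adjusted p = 0.00447, block 0.000528). NPY5R, a receptor for neuropeptide Y, rose by 1.12 from 6.21, 6.47 and 6.39 to 7.27, 7.62 and 7.54 (SE 0.14, adjusted p = 0.00456, block 0.000658). NPY5R, OR52A1 and the falling gene DLK2 were the 3 genes still called when any single array of the 12 was left out. TFF3, a trefoil peptide of mucous epithelia, was undetected at day 2 and at least 1.30-fold higher at day 3 (adjusted p = 0.0413, block 0.00442). FGF12, an intracellular relative of the fibroblast growth factors, rose by 0.83 (SE 0.15, adjusted p = 0.0413, block 0.00142), and PCDH10, a protocadherin, by 0.80 (SE 0.15, adjusted p = 0.0427, block 0.00734). A second probe of each gave 0.93 and 0.88.

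A cardiac actin gene, and with the block other contractile genes, fell. ACTC1, the cardiac alpha-actin, had the largest fitted fall among the genes called without the block. Its day 2 values of 12.10, 12.16 and 12.56 and its day 3 values of 10.58, 10.67 and 11.13 lay far above the detection limit, and the level was 2.79-fold lower at day 3 (change -1.48, SE 0.25, adjusted p = 0.0258, block 0.00107). The 3 pairs gave -1.51, -1.49 and -1.43. A list of 57 actin cytoskeleton and muscle genes was added after this fall had been seen and gives no independent support for it. Of its 46 measured members, 1 fell without the block and 15 with it, where 2.54% of all genes fell. None rose, and the median change was -0.34 against 0.00 over all genes tested. With undetected values set at the detection level, the median over all 52 with a probe was -0.21. Their summed intensity was 309966 to 324353 at day 2 and 260423 to 271371 at day 3.

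Genes of smooth and cardiac muscle were among the members called with the block. NPPB, the natriuretic peptide of stretched heart muscle, had 9.99, 9.88 and 10.32 at day 2 and 8.38, 8.69 and 8.80 at day 3 (change -1.44, adjusted p = 0.0538, block 0.00298). CNN1, the smooth muscle calponin, changed by -1.04 (adjusted p = 0.262, block 0.00149) and CSRP1, a LIM protein of smooth muscle, by -1.10 (adjusted p = 0.379, block 0.00871). In both, the replicate 3 array was the highest of its day, at 9.97 and 8.90 for CNN1 and 11.50 and 10.12 for CSRP1. TAGLN, the smooth muscle protein transgelin, had 14.82, 14.77 and 14.75 at day 2 and 14.29, 14.19 and 14.12 at day 3 (change -0.58, adjusted p = 0.083, block 0.013). Its other probes gave -0.93 and -0.63. The days did not overlap for TAGLN, whereas ACTB and ACTG1, the cytoplasmic actins of every cell, changed by -0.10 and -0.02 and passed in neither fit.

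Promoters of 3 of the falling muscle genes are shown because they hold the CArG box, the element bound by serum response factor. The box stood in 4 of the 12 promoters available for the 15 members called with the block (33.3%), in 9 of 37 of the measured list (24.3%), in 9 of 189 of all genes that fell with the block (4.76%) and in 1.07% of the promoters of tested genes. Both counts of 9 include these 4 members. Both strands were searched, and because the box reads alike on both, each place was counted once. ACTG2, a smooth muscle actin, and MYL7, an atrial myosin light chain, passed with the block (-0.76, block adjusted p = 0.0121, and -0.92, 0.0124). CNN1, CSRP1, ANKRD1, TAGLN2, PDLIM7, TGFB1I1, TPM1 and TPM2 had no match in this window, and TAGLN, NPPB and MYH3 were not in the table. Capitals mark the box, which begins 109 bases before the start in ACTC1 (chr15:34795550-34795799, minus strand), 110 and 73 bases before it in ACTG2 (chr2:73892758-73893007, plus strand) and 61 bases before it in MYL7 (chr7:44141333-44141582, minus strand).
ACTC1: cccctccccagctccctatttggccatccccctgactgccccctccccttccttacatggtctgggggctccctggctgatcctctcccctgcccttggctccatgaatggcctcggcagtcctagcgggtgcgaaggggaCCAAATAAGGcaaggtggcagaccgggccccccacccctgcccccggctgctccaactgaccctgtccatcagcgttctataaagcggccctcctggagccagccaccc
ACTG2: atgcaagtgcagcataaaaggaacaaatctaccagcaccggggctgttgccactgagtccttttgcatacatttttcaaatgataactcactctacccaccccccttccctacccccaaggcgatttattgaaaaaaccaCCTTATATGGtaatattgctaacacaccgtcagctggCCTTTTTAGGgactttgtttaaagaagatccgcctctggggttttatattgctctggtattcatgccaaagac
MYL7: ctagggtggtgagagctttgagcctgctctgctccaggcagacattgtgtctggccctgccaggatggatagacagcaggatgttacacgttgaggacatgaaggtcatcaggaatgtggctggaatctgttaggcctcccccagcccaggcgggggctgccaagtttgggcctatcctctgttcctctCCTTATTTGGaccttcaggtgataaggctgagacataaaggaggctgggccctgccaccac

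HES5, LHX3, NPTX1 and DLK2 also fell, of which only HES5 is in a list of neuroectoderm or Notch genes. HES5, a transcription factor induced by Notch in neural progenitors, had 6.98, 6.39 and 6.55 at day 2 and was undetected at day 3 (5.48, 5.79 and 5.73), at least 1.63-fold lower (adjusted p = 0.0258, block 0.00421). LHX3, a homeodomain factor of motor neurons and the pituitary, went from 6.78, 6.42 and 6.84 to undetected values of 5.56, 5.15 and 5.38, at least 1.68-fold lower (adjusted p = 0.00612, block 0.000658). NPTX1, a neuronal pentraxin, fell by 1.47 from 7.15, 6.89 and 7.15 to 5.76, 5.03 and 5.99 (SE 0.21, adjusted p = 0.0137, block 0.00149). Each of these was low to begin with, and only 1 of the 9 arrays of the 3 genes at day 3 was above the detection limit. DLK2, a relative of the Notch ligands, fell by 1.47 from 7.87, 7.37 and 7.63 to 6.34, 5.90 and 6.22 (SE 0.17, adjusted p = 0.00447, block 0.000404).

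Of 24 measured neuroectoderm genes, 1 fell without the block and 5 with it, and 0 rose, with a median change of -0.17. With the block, 2.54% of all genes fell. Over all 39 with a probe, most of the rest undetected, the median with undetected values set at the detection level was 0.03. That is also the median of all genes in this setting, and the value of a gene at the detection level on every control array. The members called with the block were HES5, the Notch ligand DLL1 (-0.85, adjusted p = 0.115, block 0.0105), SOX3 (-0.75, adjusted p = 0.185, block 0.00796), the intermediate filament gene NES (-0.73, adjusted p = 0.186, block 0.0123) and IRX3 (-0.60, adjusted p = 0.201, block 0.0389). NES was bright, with 11.37, 11.38 and 11.69 at day 2 and 10.642, 10.605 and 10.995 at day 3, and its days did not overlap. In the Notch pathway list, 1 of 24 measured members fell without the block, and with it 2 fell and 1 rose, the last being RBPJ, the DNA-binding partner of Notch (0.52, adjusted p = 0.158, block 0.0438).

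FGFR3, a receptor for fibroblast growth factors, fell by 0.90 from 10.49, 10.34 and 10.26 to 9.66, 9.35 and 9.38 (SE 0.15, adjusted p = 0.0219, block 0.00297). KCNF1, a potassium channel subunit, fell by 1.03 (SE 0.15, adjusted p = 0.013, block 0.00153). RND1, whose product loosens actin stress fibres, had 7.27, 7.28 and 7.35 at day 2 and 6.48, 6.33 and 6.41 at day 3 and fell by 0.89 (SE 0.14, adjusted p = 0.0197, block 0.00383). The 3 genes were detected on all 6 arrays.

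LTB, IL32 and TICAM1 fell as well. LTB, a membrane-bound lymphotoxin of the tumour necrosis factor family, had 8.43, 7.92 and 7.70 at day 2 and 6.76, 7.13 and 6.47 at day 3 and fell by 1.23 (SE 0.19, adjusted p = 0.0197, block 0.00297). IL32, a pro-inflammatory cytokine, fell by 1.11 from 8.403, 8.215 and 8.562 to 7.15, 7.29 and 7.42 (SE 0.17, adjusted p = 0.0156, block 0.000658), and its second probe gave -1.27. TICAM1 fell by 1.00 from 6.998, 7.058 and 7.159 to 5.65, 6.28 and 6.28 (SE 0.18, adjusted p = 0.0387, block 0.00383). IL11, a cytokine of the interleukin-6 family, passed only with the block (-1.30, adjusted p = 0.0606, block 0.000404).

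The remaining called genes were low or carry a doubt about the probe. S100A3, a calcium-binding protein, was detected at day 2 and undetected at day 3, at least 1.13-fold lower (adjusted p = 0.0413, block 0.000658). CSH2, a placental lactogen, was at least 1.43-fold lower at day 3 (adjusted p = 0.0137, block 0.00207), and its close relatives CSH1 and growth hormone are nearly identical in sequence, so the probe may not tell them apart. RNU6ATAC, a spliceosomal small RNA, fell by 1.37 (SE 0.25, adjusted p = 0.0413, block 0.00871).

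Of 46 pluripotency genes with a probe, 40 were detected on all 6 control arrays. Of 41 measured pluripotency genes 1, GDF3, rose without the block, 2 rose and 1 fell with it, and 32 had a change above 0 (median 0.17). Among all 10506 genes, 5254 had a change above 0, and 1.74% rose and 2.54% fell with the block. DPPA5, a gene of early embryos and germ cells, rose with the block, from 6.09, 6.33 and 5.45 to 7.54, 7.34 and 6.80 (change 1.27, adjusted p = 0.0606, block 0.000658). The core factors passed in neither fit. POU5F1 had 13.14, 12.92 and 12.69 at day 2 and 13.09, 13.26 and 13.29 at day 3 (change 0.29, SE 0.19, adjusted p = 0.665, block 0.362). NANOG had 9.88, 9.85 and 9.86 at day 2 and 10.13, 10.31 and 10.36 at day 3 (change 0.40, SE 0.18, adjusted p = 0.443, block 0.163). SOX2 changed by 0.35 (SE 0.26, adjusted p = 0.713, block 0.313), DNMT3B, a DNA methyltransferase of early development, by 0.45 (SE 0.14, adjusted p = 0.225, block 0.0641), LIN28A, an RNA-binding protein, by 0.09 (SE 0.13) and PODXL, a surface sialomucin, by 0.03 (SE 0.18). NANOG did not overlap between the days, whereas POU5F1 did.

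Markers of the germ layers and of extraembryonic cells moved in few members. Among all genes, 1.74% rose and 2.54% fell with the block. EOMES, a primitive streak factor, had 8.09, 8.29 and 7.21 at day 2 and 9.70, 8.28 and 8.10 at day 3, with overlap (change 0.83, adjusted p = 0.424, block 0.0815). Of 26 measured mesoderm and primitive streak genes 0 were called without the block, and 2 rose with it, ISL1 (0.92, adjusted p = 0.083, block 0.0149) and KDR (0.86, adjusted p = 0.127, block 0.013). SOX17, an endoderm factor, was undetected at day 2 and detected on 1 day 3 array (5.94, 5.03 and 4.64). In the endoderm list the 1 member called, with the block only, was AFP, the fetal serum protein (-1.06, adjusted p = 0.0581, block 0.00421). For trophoblast these were KRT7 (-1.05, adjusted p = 0.324, block 0.0176) and PGF (-0.58, adjusted p = 0.321, block 0.0418). Both were detected on only 1 day 2 array and undetected at day 3, so these fitted changes rest largely on values below detection. KRT7 was only at least 1.03-fold lower at day 3, and PGF gave no bound. GATA3 passed in neither fit (-0.49, adjusted p = 0.64). Of 23 stromal genes, 3 fell and 1 rose with the block. COL1A1, the main collagen of fibroblasts, had 10.47, 10.42 and 11.13 at day 2 and 9.93, 9.59 and 10.59 at day 3 (change -0.64, adjusted p = 0.468, block 0.0163), with the replicate 3 array highest on both days.

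Stress and growth pathways showed changes mainly with the block. Over all genes, 1.74% rose and 2.54% fell with it, and 5252 of 10506 had a change below 0. Of 41 immediate early and ERK response genes 0 were called without the block, and with it 5 fell and 1 rose. The median change was -0.34, or -0.10 over all 49 with a probe and undetected values at the detection level. In the pairs of replicates 1, 2 and 3 the median was smaller, at -0.16, -0.23 and -0.26. Members that fell included the early transcription factors ATF3 (-0.71, adjusted p = 0.196, block 0.0178) and EGR1 (-0.67, adjusted p = 0.0892, block 0.0165). SPRY1, a feedback inhibitor of ERK signalling, was the member that rose (0.50, adjusted p = 0.176, block 0.0252). Of 54 genes of the unfolded protein and ATF4 response, 5 fell with the block and 40 had a change below 0 (median -0.15). TRIB3, a pseudokinase of this response, had the largest change (-0.95, adjusted p = 0.0857, block 0.00871). ATF5, a related transcription factor, had 11.30, 11.08 and 10.42 at day 2 and 10.21, 9.78 and 9.24 at day 3 (change -1.19, adjusted p = 0.167, block 0.000404).

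Among metabolic genes, 2 of 31 cholesterol synthesis genes rose with the block, INSIG1 (0.67, adjusted p = 0.139, block 0.0287) and HMGCS1 (0.48, adjusted p = 0.294, block 0.0324), and the list's median change was 0.24. In glycolysis and hypoxia 3 of 66 rose and 5 fell with the block, led by BHLHE40, a hypoxia-induced repressor (-0.87, adjusted p = 0.185, block 0.0123). For all genes these shares were 1.74% rising and 2.54% falling. Several lists had calls with the block at a share near or below the 4.28% of all genes, or from 1 member alone. These were ID3 of 19 BMP response genes (-0.66, block 0.0111), CRYAB of 32 heat shock (-0.58, block 0.0152), SRXN1 of 34 oxidative stress (-0.67, block 0.0463), PHF19 of 36 chromatin (-0.50, block 0.0392), PHLDA2 of 16 imprinted (-0.66, block 0.0279) and RPL31 of 68 ribosomal protein genes (0.56, block 0.0373). CRYAB was detected on only 1 day 2 array and undetected at day 3, so its change rests largely on values below detection. Of 32 p53 targets 2 were called, GADD45A (-0.46, block 0.0331) and ZMAT3 (-0.55, block 0.0178), but the other ZMAT3 probes gave -0.07 and 0.36. In Nodal and TGF-beta response, GDF3 rose and the activin antagonist FST fell with the block (-0.52, block 0.0312). No member was called in either fit among 52 DNA replication, 62 mitosis, 43 mitochondrial respiration, 28 epithelial, 25 histone and 37 lysosome genes. Medians of these 6 lists lay between -0.07 and 0.05.

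**Figure D3:**
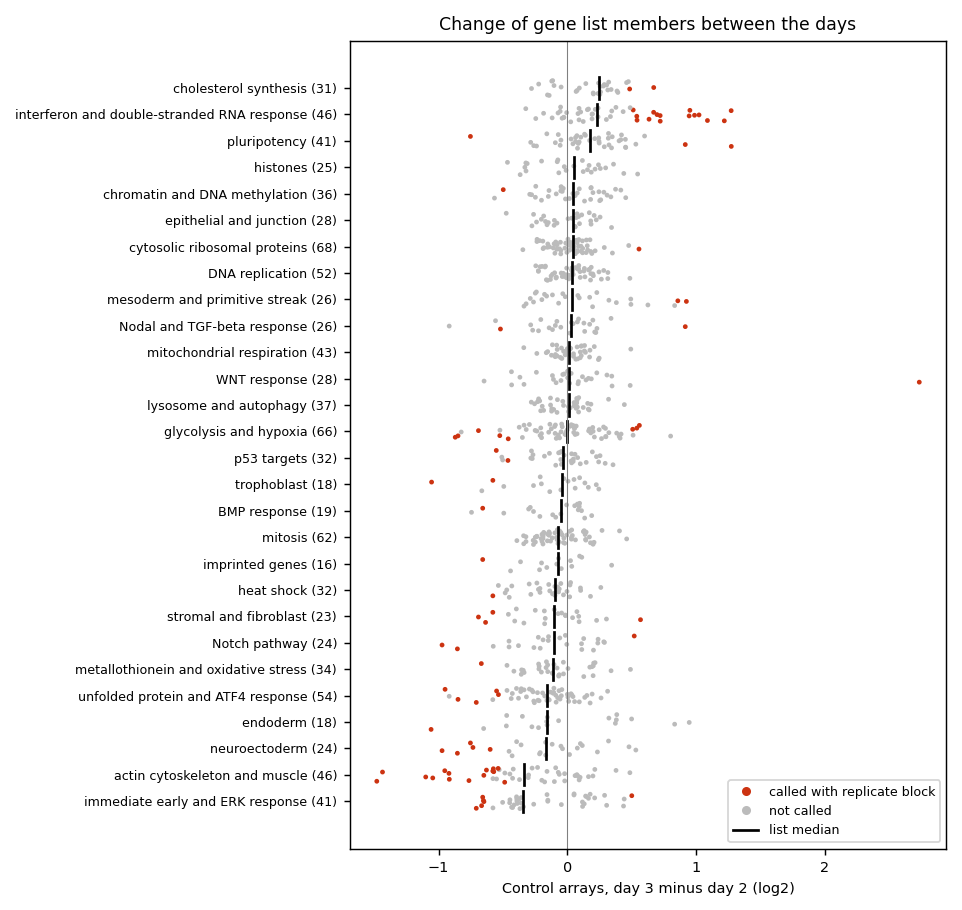
Day 3 minus day 2 in control arrays (log2) for the measured members of each gene list, with the number measured in brackets. Grey points are members not called, red points members called with the replicate block, and black bars list medians, from -0.34 for immediate early and ERK response and for actin cytoskeleton and muscle to 0.24 for cholesterol synthesis. Points are spread vertically within a list for legibility.

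Outside the lists, the largest changes called only with the block were as follows. IGFBP5, a binding protein of insulin-like growth factors, had 9.92, 9.90 and 10.28 at day 2 and 7.42, 8.96 and 9.17 at day 3 (change -1.52, adjusted p = 0.17, block 0.0128). The replicate 1 array was the lowest at day 3. MFAP5, a microfibril protein, changed by -1.33 (adjusted p = 0.0696, block 0.000404), and the neuropeptide genes TAC1 and CALCA by -1.29 (block 0.00576) and -1.25 (block 0.000528). TAC1 was undetected at day 3, so its level was only at least 1.67-fold lower there. CXCL12, a chemokine, had 7.95, 8.01 and 8.01 at day 2 and 8.99, 8.90 and 9.02 at day 3 (change 0.98, adjusted p = 0.0639, block 0.00871). Its dimmer probes gave 0.64 and 0.38. FGF19, a secreted growth factor, changed by 0.93 (block 0.0139), THBS2, a matrix protein, by 0.94 (block 0.0297), MAOA, a monoamine oxidase, by 0.96 (block 0.0105), and DAZL, a germ cell RNA-binding protein, by 0.95 (block 0.0123). Further rises with the block were KATNAL2 (1.05), IZUMO2 (0.98), CLYBL (0.96) and TMEM144 (0.95), and further falls were SNORD13 (-1.37), GARIN1B (-1.29), TRIM47 (-1.23), WNK4 (-1.12), SFN (-1.10), CIDEA (-1.07) and LAMP3 (-1.06). KATNAL2 was undetected at day 2, so its level was only at least 1.39-fold higher at day 3.

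The change between the days was set beside that in the knockdown arrays, which share no array with the control arrays, although same-numbered arrays of both groups deviated together at correlations of 0.022 to 0.738. In knockdown arrays 607 genes were called between the days (5.78%), 411 upward (3.91%) and 196 downward (1.87%). The changes differed between control and knockdown for 243 genes (2.31%), and with the block for 756 (7.2%). Of the 26 genes called in control arrays, 17 (65.4%) had the same direction in knockdown arrays, against 57.8% of all genes, and 6 were called there in that direction and 0 in the opposite one. For 14 of the 26 the changes differed. GDF3 rose in both, by 0.92 in control and 1.19 in knockdown arrays (adjusted p = 0.000339). LHX3, NPTX1 and CSH2 had knockdown changes of -0.98, -0.92 and -1.001, and their changes did not pass the test of the difference (interaction adjusted p = 0.676, 0.52 and 0.865). These 3 genes were undetected on every knockdown day 3 array, so in knockdown arrays they were only at least 1.54-, 1.02- and 1.12-fold lower, and the fitted values and this test rest on values below detection. SULF1, called in both, was undetected on all 6 knockdown arrays.

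ACTC1 changed by 0.06 in knockdown arrays, where it stood at 13.33 at day 2 and 13.39 at day 3, above every control array (interaction adjusted p = 0.0346). NPPB fell with the block in control arrays and rose by 1.15 in knockdown arrays (interaction adjusted p = 0.00244). DKK4 stood at 10.03 and 10.28 in knockdown arrays, above its highest control value. LTB, TICAM1 and FGFR3 had knockdown changes of 0.45, 0.42 and 0.21, against falls in control arrays (interaction adjusted p = 0.00493, 0.00774 and 0.0111).

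**Figure D4:**
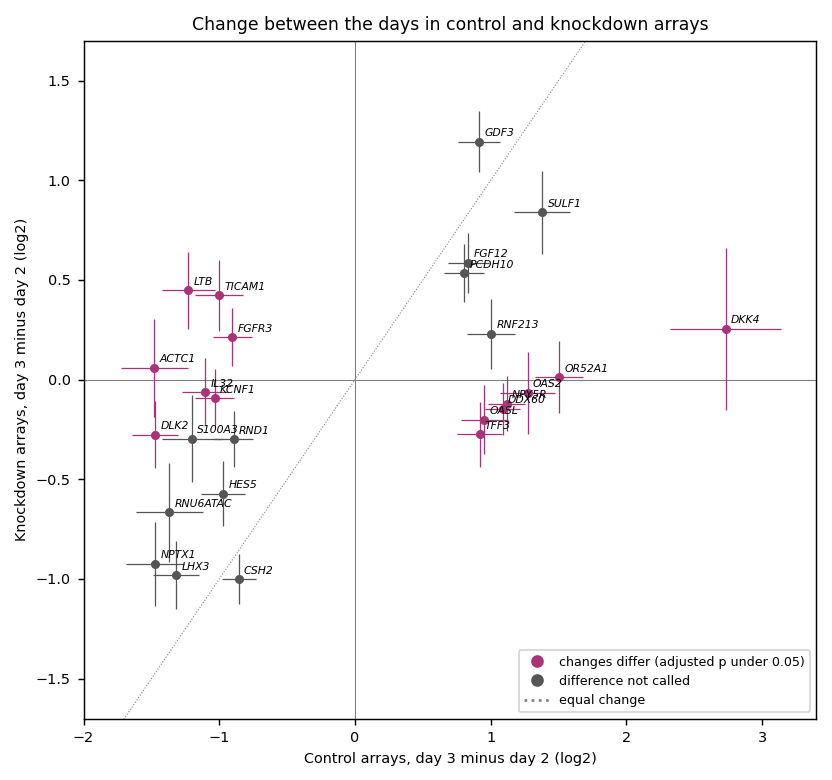
Change between the days in control arrays (horizontal axis, log2) and in knockdown arrays (vertical axis, log2) for the 26 genes called in control arrays. Bars are standard errors from the limma fit, purple marks the 14 genes whose changes differed between control and knockdown, and the dotted line marks equal change. GDF3, FGF12 and PCDH10 lie near the line, and DKK4, OAS2, ACTC1 and LTB lie away from it. Vertical positions of genes undetected in knockdown arrays, such as SULF1 and OAS2, rest on values below detection.

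Brightness was used to order genes within the control arrays. It mixes transcript abundance with how well each probe binds, so the order ranks probes and not molecules. The gene probe with the highest mean over the 6 arrays was that of EEF1A1, a translation elongation factor (15.46), followed by ACTG1 (15.35). Among the 20 brightest, 10 were ribosomal protein genes (RPS25, RPL41, RPS29, RPS12, RPS10, RPL6, RPL18, RPS16, RPS3 and RPS6). The others included the iron storage subunit FTL, the actin-binding proteins TMSB4X and PFN1, the myosin light chain MYL6, TPT1 and the antizyme OAZ1. Probes annotated to SLC7A5P2, a pseudogene, and LAIR1, a leukocyte receptor, were also among them, and whether these probes bind other transcripts was not tested. Cytosolic ribosomal protein genes made up 37 of the 100 brightest, and 36 or 37 when each day was ranked alone. Steps between neighbours among these 20 were 0.00 to 0.11, and their SDs over the 6 arrays 0.04 to 0.18.

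The detected embryonic stem cell markers ranked from 155 to 2656 in this order. By mean brightness over the 6 arrays, DPPA4 ranked 155 of 10506, PODXL 191, LIN28A 212, POU5F1 277, DNMT3B 436, SALL4 648, SOX2 1190, L1TD1 1359 and NANOG 2656. Such ranks were not particular to them, since TAGLN stood at 64, ACTC1 at 1020 and COL1A1 at 2257. The pluripotency genes GDF3 and DPPA5 stood at 4013 and 8624. The order changed little between the days (Spearman's rank correlation 0.991 across genes, which are not independent replicates), and 309 genes moved by more than 1000 ranks. ACTC1 went from rank 585 at day 2 to 1730 at day 3.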

How the data were processed

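Values were the deposited probe intensities, linear and not normalised per the file headers, with deposited detection p-values in steps of 1 in 759. A table of the authors' processed log2 values equalled the log2 intensities after removal of an array constant and a probe baseline (remainder SD 1.71e-07, column medians -0.0146 to 0.0136). The samples behind that baseline stayed unknown, and these values served as an alternative. The scanner software is not given in the sources used here.

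The neqc function (limma 3.58.1, R 4.3.3) subtracted background estimated from the detection p-values, added an offset of 16, normalised by quantiles and took log2. Probes with detection p under 0.01 on at least 3 of 12 arrays were kept (15407 of 48803). By GEO's annotation, 28098 probes have 1 gene, 13 have several and 20692 have none, and 28059 matched NCBI RefSeq (GRCh38.p14). The brightest kept probe stood for each of 10506 genes. All 12 arrays entered 1 limma fit with 4 group means (8 residual and 5.2 prior degrees of freedom). Tests were two-sided, with Benjamini-Hochberg adjustment over all genes. The code was tested on simulated data. The number of arrays limits the precision.

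Same-numbered arrays of the control days correlated in their deviations above 0.1 in every pair, so the numbers were taken to pair them, with no label stating what they mark. For replicates 1 and 2 a differently numbered array correlated more (0.289 and 0.317). Deviations of 3 arrays from their mean cancel, so replicate 3 standing apart on both days itself raises the correlations among replicates 1 and 2. Passing 0.1 therefore does not show that replicates 1 and 2 are paired by number. Where a gene was undetected on all 3 arrays of a day, the bound divides the brighter mean by the dim day's mean, each dim array taken at the lowest detected value or its own if higher (log2 5.69 to 6.16).

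Genes named were all those called without the block, the 15 largest rises and 15 largest falls called only with it and alike in 3 pairs, up to 4 called members of each list or 2 uncalled, 14 fixed genes, and the 20 brightest. The members, lists and rule were chosen with earlier results of these data known, and the actin list was added after these values were seen. Alternatives were the block, scaling, background, offset, filters, weights, probes, fits to the 6 control arrays, and arrays left out.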

Additional observations from a re-analysis of the deposited data

Results flagged for a closer look

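Among the genes named for the largest changes, 19 changed differently between the days in control and in knockdown arrays by the interaction test of limma (adjusted p under 0.05 over 10506 genes). Values are the knockdown change minus the control change on the log2 scale.

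These genes were named for their control change, which also enters the difference, so the sign of the difference largely follows from that choice and the count of 19 is not to be read against all genes. For genes higher at day 3 in control arrays the difference was -2.48 for DKK4, -2.11 for DPPA5, -2.11 for FGF19, -1.50 for THBS2, -1.49 for OR52A1, -1.34 for OAS2, -1.24 for NPY5R, -1.23 for DDX60, -1.19 for TFF3 and -1.15 for OASL. FGF19 changed by 0.93 in control arrays and by -1.18 in knockdown arrays. DPPA5 was undetected at knockdown day 3, where its level was only at least 1.05-fold lower than at knockdown day 2, and DKK4, OR52A1, DDX60, OASL and TFF3 were undetected at control day 2. OAS2, DDX60, OASL, NPY5R and TFF3 were undetected on all 6 knockdown arrays, so the differences of these 8 genes rest in part on values below detection.

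For genes lower at day 3 in control arrays the difference was 2.58 for NPPB, 1.68 for LTB, 1.59 for IL11, 1.54 for ACTC1, 1.43 for TICAM1, 1.19 for DLK2, 1.12 for FGFR3, 1.04 for IL32 and 0.941 for KCNF1. NPPB, LTB and TICAM1 changed by -1.44, -1.23 and -1.004 in control arrays and by 1.15, 0.45 and 0.42 in knockdown arrays.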

How the results depend on the processing

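Against 26 calls (12 higher, 14 lower), the replicate block gave 450 (183 and 267), a random block 379 (173 and 206), array weights 166 (72 and 94), the 6 control arrays alone with the replicate block 314 (108 and 206), and detection on all 6 control arrays 8 (2 and 6), a filter that left 11 of the 26 genes to test because it needs detection on both days. Calls downward were 23 with an offset of 50 and 22 with detection on at least 3 of the 6 control arrays. Median scaling, no background correction, the authors' log2 values, no filter, every probe and the 6 control arrays alone gave 19 to 30 calls, within 1.5 times of 26, but kept 22, 19, 17, 17, 19 and 15 of the 26 genes. With arrays left out, 0 to 54 genes were called, 0 to 24 higher and 0 to 30 lower. The 243 genes whose changes differed became 756 with the replicate block, 717 with a random block, 402 with array weights, 137 and 97 with both stricter filters, and 11 to 260 with arrays left out. For these the pairing is less certain, since control and knockdown day 2 arrays of replicate 1 correlated at 0.022. The other causes were not tested. No named gene reversed a called direction, and the medians of 18 of 28 lists changed sign under some setting. Interferon (0.12 to 0.27), actin (-0.42 to -0.21), immediate early (-0.37 to -0.10), pluripotency (0.12 to 0.21) and cholesterol (0.13 to 0.28) medians kept theirs. Signal over background limits 9 of the 26 genes, undetected on one day, to bounds. The same holds for 43 of the 450 genes called with the block.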
